A study of Rattus norvegicus with 24 samples.

Results

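Rats that had heard a loud noise in 7 daily sessions, the Repeated Stress 7 (RS7) group, were compared with rats of the no stress control (C) group, in tissue dissected around the rostral posterior hypothalamus (rPH). The rats were chosen by their treatment label and by the study's own exclusions, which leaves the 5 RS7 rats 2 to 6 and the 5 C rats 19 and 21 to 24, or 10 of the 24 rats sequenced. All were adult Sprague-Dawley rats from Envigo, and the methods of the study call them young males. RS7 rats received white noise in a sound-attenuating chamber on each of 7 days, and C rats were put in the same chambers each day with no more than fan noise. Blood was drawn from a tail vein of all rats at the end of the last session, and brains were taken 24 h after it, so no library shows a rat during or just after the noise. Each library came from the tissue of 1 rat, a block cut from the 2 mm coronal slice between 2.5 and 4.5 mm behind bregma. The rats of the other groups had heard the noise 1 time (AS) or 3 times (RS3), and 5 of each stood in the same model, where they served to estimate the spread.

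When a stressor of the same kind and of moderate strength is repeated, the hormonal stress response to it becomes smaller, which is called habituation. The posterior hypothalamus sends projections to the paraventricular nucleus, where neurosecretory neurons start the release of adrenal corticosteroids. Fast transmission in this region uses glutamate and GABA, and voltage-gated channels, calcium transporters and kinases set how readily a neuron fires and how its synapses change. The comparison asks which transcripts differ between rats with many exposures and rats with none.

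The number of reads counted on genes was 12741548, 8087697, 10393286, 14602689 and 11298078 in C rats 19, 21, 22, 23 and 24, and 14189794, 12479489, 16538531, 16208973 and 12806794 in RS7 rats 2, 3, 4, 5 and 6. The RS7 libraries were deeper on average, with groups that overlapped (two-sided exact permutation test, p = 0.0714). The 10 most abundant genes of each library took 14.2, 20.1, 20.3, 13.6 and 14.5% of the counts in the C rats and 13.1, 13.96, 18.8, 14.001 and 13.8% in the RS7 rats. C rats 21 and 22 and RS7 rat 4 stood apart from the other 7 rats in this share, and the difference between the group means did not pass the same test (exact permutation p = 0.214). The number of genes with at least 1 count was 20393 ± 468.3 in the C group and 20613 ± 160.6 in the RS7 group (SD, n = 5, exact permutation p = 0.333). With C rats 21 and 22 and RS7 rat 4 left out together, a choice made after seeing the data, edgeR called 0 genes between the groups and 2127 genes had an unadjusted p under 0.05.

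In the fit of all retained rats, 24 of 16202 genes tested (0.148%) were called by edgeR's quasi-likelihood test at a Benjamini-Hochberg adjusted p of 0.05 or less. Of these, 18 (0.111%) were higher and 6 (0.037%) lower in the RS7 group. The called genes include those of potassium channels, a calcium exchanger, a kinase and other signalling enzymes, a Wnt receptor, a transcription factor and proteins of membranes and the cytoskeleton. Most changes were small. Over all genes tested the median log2 fold change, RS7 minus C, was -0.01, and 5% of genes lay below -0.40 and 5% above 0.28. The absolute log2 fold change had a median of 0.66 in the called genes and 0.10 in all genes. A further 365 genes had an adjusted p above 0.05 and up to 0.1, of which 222 were higher and 143 lower in the RS7 group.

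An unadjusted p under 0.05 was found for 2896 genes (17.9%), with the RS7 group above the C group in 1431 (8.83%) and below it in 1465 (9.04%). The values of the 5 RS7 rats lay wholly above or wholly below those of the 5 C rats in 581 genes (3.59%), above in 333 (2.06%) and below in 248 (1.53%). The largest differences were mostly decreases, since 66 genes had a log2 fold change of -1 or less and 11 had 1 or more. Gene symbols were at hand for 778 of the genes tested, all of which the study had listed as changed in at least 1 of its group comparisons, not always between C and RS7, and 662 of the 778 (85.1%) had an unadjusted p under 0.05, of which 439 were higher and 223 lower in RS7 rats. Counts within gene lists below are therefore descriptions of genes selected on the samples of this study. They are not independent evidence of a direction or of a change in a list. The study made its lists with the DESeq2 Wald test on these rats, so many DESeq2 calls among matched genes were fixed in advance. Over all genes with an adjusted p, the DESeq2 Wald test called 419 of 14360 and limma-voom 164 of 16202. EdgeR called 23 of the 778 genes with a symbol. Unless another tool is named, called means called by edgeR. Of the 82 genes that the naming rule chose and that were not called, 68 were called in at least 1 alternative analysis. These genes were chosen by low p or large difference, and the alternatives include the study's own test. The 68 are therefore no support for single genes, and the matching number over all genes tested was not counted.

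**Figure D1:**
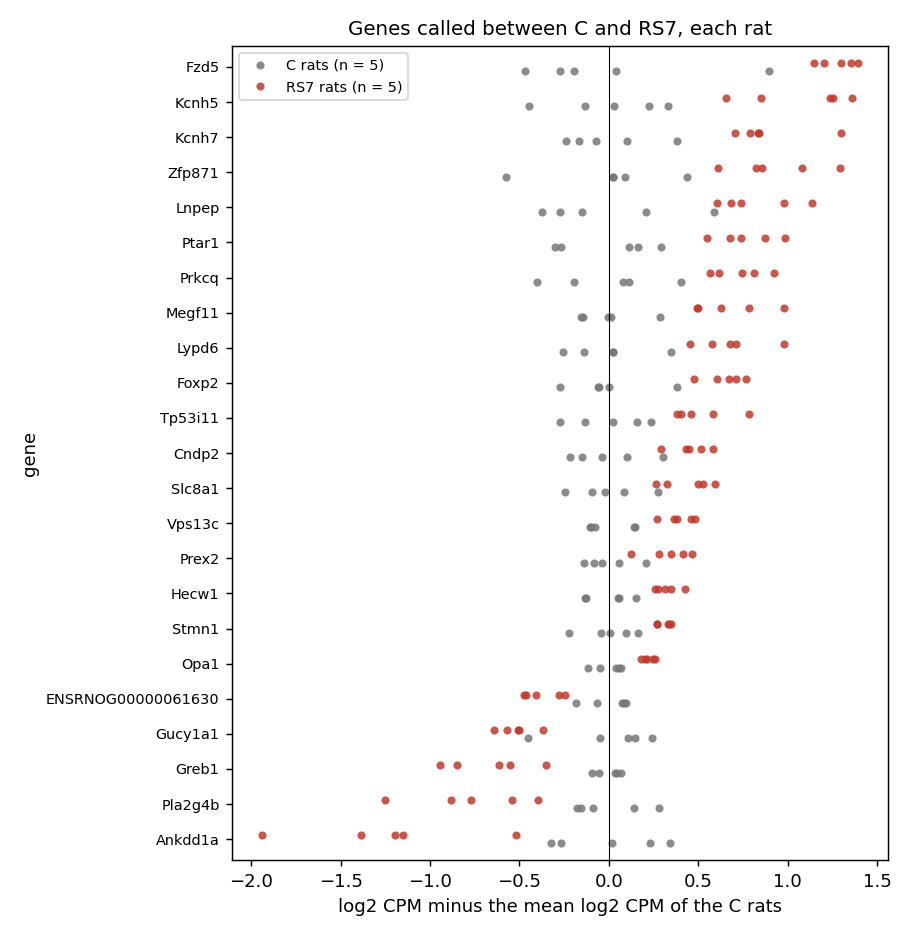
Each point is 1 rat, C in gray and RS7 in red, and each line of points is 1 gene called between the groups; not every called gene is drawn. The horizontal axis gives the log2 CPM minus the mean log2 CPM of the C rats, and the points of the groups overlap in Cndp2, Slc8a1, Prex2 and Gucy1a1.

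Values of single rats are given below in CPM, the rate of counts once every library is scaled to a common size, with C rats in the order 19, 21, 22, 23 and 24 and RS7 rats in the order 2, 3, 4, 5 and 6. Log2 fold changes are given with their standard error (SE). Potassium channels of the ether-a-go-go family, which help to set how a neuron repolarises, gave 2 of the calls. Kcnh5 (ENSRNOG00000009542), which encodes the Kv10.2 channel, had 4.63, 3.73, 6.39, 5.17 and 5.92 CPM in the C rats and 8.01, 13.03, 9.18, 11.99 and 12.1 CPM in the RS7 rats. The lowest RS7 rat stood above the highest C rat, and RS7 rats 2 and 4 were nearest to the C group. Kcnh7 (ENSRNOG00000007528), which encodes the related Kv11.3 channel, had 3.08, 2.93, 4.503, 3.29 and 3.71 CPM in the C rats and 5.99, 6.19, 5.64, 6.18 and 8.52 CPM in the RS7 rats. Here too the groups did not overlap, and RS7 rat 6 stood above the other 4 RS7 rats. The rise was 2.08-fold for Kcnh5, a log2 fold change of 1.06 (SE 0.181, edgeR adjusted p = 0.0181), and 1.85-fold for Kcnh7, a log2 fold change of 0.89 (SE 0.151, edgeR adjusted p = 0.0181). Both genes rest on few reads, between 28 and 190 counts a rat for Kcnh5 and between 22 and 109 for Kcnh7.

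The list of potassium channels held 46 symbols, of which 15 were matched and tested. Of these 15, 2 were called, both higher (7 by the DESeq2 Wald test and 3 by limma-voom). By unadjusted p under 0.05 there were 11 higher and 2 lower in the RS7 group. The median log2 fold change of the 15 was 0.27. Kcnq3, a subunit of the M-current that quiets neurons between bursts, had 22.3, 18.5, 29.7, 33.3 and 33.9 CPM in the C rats and 38.03, 48.5, 35.98, 47.1 and 42.5 CPM in the RS7 rats. All 5 RS7 rats lay above all 5 C rats, and the log2 fold change of 0.61 (SE 0.142, edgeR adjusted p = 0.0638) did not pass. Kcng1, a subunit that is silent by itself and modifies other channels, was low throughout, with 4.01, 3.19, 3.04, 2.01 and 3.01 CPM in the C rats and 1.602, 2.09, 1.31, 1.26 and 1.797 CPM in the RS7 rats. Its values overlapped only through C rat 23 and RS7 rat 3, with a log2 fold change of -0.92 (SE 0.2103, edgeR adjusted p = 0.0549).

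Of 34 sodium, calcium and other cation channel genes, 14 were matched and 1 was called, lower (7 by the DESeq2 Wald test and 4 by limma-voom). At an unadjusted p under 0.05, 8 were higher and 5 lower, and the median log2 fold change of the 14 was 0.25. Cachd1, an alpha2delta-like protein that modifies calcium channels, had 46.6, 51.1, 59.9, 51.6 and 54.8 CPM in the C rats and 61.8, 63.5, 70.4, 65.04 and 64.3 CPM in the RS7 rats. Its groups did not overlap and its log2 fold change of 0.30 (SE 0.0647, edgeR adjusted p = 0.0501) was just outside the threshold. Unc80, part of the sodium leak channel complex, had a log2 fold change of 0.30 (SE 0.0776, edgeR adjusted p = 0.0736). Cacna1i, a T-type calcium channel, had a log2 fold change of -0.25 (SE 0.0717, edgeR adjusted p = 0.0963), with every RS7 rat below every C rat.

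Slc8a1 (ENSRNOG00000008479), the sodium-calcium exchanger NCX1 that carries calcium out of the cell, had 38.6, 34.9, 43.9, 40.7 and 50.03 CPM in the C rats and 49.5, 58.4, 51.7, 62.3 and 59.5 CPM in the RS7 rats. The groups met at C rat 24, which stood above RS7 rat 2 alone. The level rose 1.35-fold, a log2 fold change of 0.43 (SE 0.0851, edgeR adjusted p = 0.0441). All 7 matched members of the 15 genes of calcium pumps, exchangers and calcium release were higher in the RS7 group at an unadjusted p under 0.05. Slc8a1 was the 1 called (4 by the DESeq2 Wald test and 2 by limma-voom), and the median log2 fold change was 0.36. Itpr1, the receptor through which inositol trisphosphate frees stored calcium, had 254, 183, 234, 311 and 293 CPM in the C rats and 345, 393, 305, 435 and 377 CPM in the RS7 rats. RS7 rat 4 lay below C rat 23, and the other 4 RS7 rats stood above the C group, a log2 fold change of 0.54 (SE 0.134, edgeR adjusted p = 0.07399). Slc24a3, an exchanger that also moves potassium, had a log2 fold change of 0.21 (edgeR adjusted p = 0.112), and Jph3, which ties the endoplasmic reticulum to the cell membrane, one of 0.14 (edgeR adjusted p = 0.1204).

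**Figure D2:**
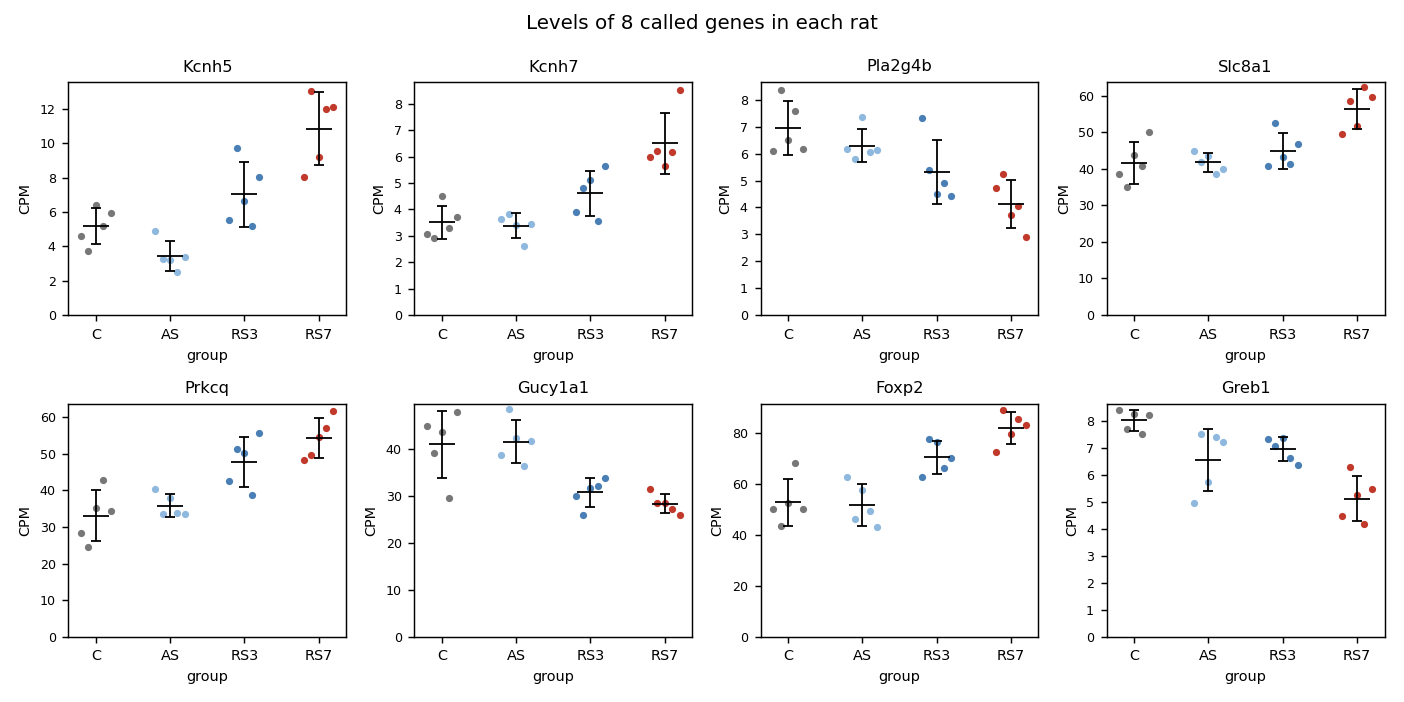
CPM of 8 called genes in each of the 20 rats of the fit, with 5 rats in each of the groups C, AS, RS3 and RS7; the bar and whiskers give the mean and SD. Kcnh5 and Foxp2 are higher and Pla2g4b and Greb1 lower in all 5 RS7 rats than in all 5 C rats.

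Among signalling enzymes, Prkcq (ENSRNOG00000019057), the protein kinase C theta that diacylglycerol activates, had 28.5, 24.6, 35.2, 42.97 and 34.3 CPM in the C rats and 48.2, 49.8, 54.6, 57.03 and 61.7 CPM in the RS7 rats. The highest C rat, rat 23, stayed under the lowest RS7 rat. The level rose 1.62-fold, a log2 fold change of 0.70 (SE 0.118, edgeR adjusted p = 0.0181). Gucy1a1 (ENSRNOG00000012302), a subunit of the guanylate cyclase that senses nitric oxide, had 44.8, 39.1, 43.6, 29.5 and 47.7 CPM in the C rats and 31.3, 28.5, 28.4, 27.3 and 25.9 CPM in the RS7 rats. C rat 23 lay inside the range of the RS7 rats and the other 4 C rats lay above it, with a log2 fold change of -0.53 (SE 0.104, edgeR adjusted p = 0.0441). Pla2g4b (ENSRNOG00000007447), a cytosolic phospholipase A2, had 6.09, 8.38, 6.49, 7.59 and 6.19 CPM in the C rats and 4.74, 5.23, 3.74, 4.04 and 2.89 CPM in the RS7 rats. The groups did not overlap, and the level fell 1.67-fold, a log2 fold change of -0.74 (SE 0.1497, edgeR adjusted p = 0.0457). Prex2 (ENSRNOG00000005391), which activates the small GTPase Rac, rose by a log2 fold change of 0.32 (SE 0.0649, edgeR adjusted p = 0.0452), and RS7 rat 4 was the RS7 rat that reached into the C range.

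Of 25 genes of calcium and lipid second messengers, 12 were matched. Prkcq was the 1 called (7 by the DESeq2 Wald test and 2 by limma-voom). At an unadjusted p under 0.05, 10 were higher and 0 lower, with a median log2 fold change of 0.31 and 7 whose groups did not overlap. Camk4, a calmodulin-dependent kinase of the nucleus, had 14.6, 12.8, 17.6, 16.5 and 14.1 CPM in the C rats and 18.2, 20.8, 21.2, 24.4 and 23.2 CPM in the RS7 rats. All RS7 rats stood above all C rats, though RS7 rat 2 by little, and the log2 fold change of 0.51 (SE 0.117, edgeR adjusted p = 0.0599) did not pass. The kinase gene Prkcb had a log2 fold change of 0.20 (edgeR adjusted p = 0.0917) and Camk1d 0.32 (edgeR adjusted p = 0.0953).

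The Wnt receptor Fzd5 (ENSRNOG00000014678) had 2.08, 1.46, 1.68, 3.76 and 1.77 CPM in the C rats and 4.67, 4.99, 5.18, 4.48 and 5.31 CPM in the RS7 rats. C rat 23 stood above the other 4 C rats and below all RS7 rats. The level rose 2.17-fold, a log2 fold change of 1.12 (SE 0.196, edgeR adjusted p = 0.0181), on 11 to 79 counts a rat. The list of the Wnt pathway held 29 symbols, of which 17 were matched to 18 identifiers, since Tcf7l2 has 2. Fzd5 was the 1 called (12 identifiers by the DESeq2 Wald test and 6 by limma-voom). At an unadjusted p under 0.05, 15 identifiers were higher and 1 lower, with a median log2 fold change of 0.36. The ligand Wnt4 had 28.99, 20.4, 27.7, 33.2 and 28.99 CPM in the C rats and 41.4, 42.8, 40.6, 51.5 and 46.4 CPM in the RS7 rats. Its groups were apart, with a log2 fold change of 0.66 (SE 0.1405, edgeR adjusted p = 0.05398). Ctnnb1, the beta-catenin that carries the signal to the nucleus, had a log2 fold change of 0.31 (SE 0.0735, edgeR adjusted p = 0.06001). Dvl2, which relays the signal from the receptor, was the member below, at 13.7, 12.9, 14.97, 13.6 and 13.6 CPM in the C rats and 11.004, 10.8, 11.9, 10.4 and 9.85 CPM in the RS7 rats, and all RS7 rats lay under all C rats (-0.35 on the log2 scale, edgeR adjusted p = 0.0736).

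Foxp2 (ENSRNOG00000054508), a forkhead transcription factor, had 50.3, 43.4, 52.5, 68.3 and 50.3 CPM in the C rats and 72.8, 89.2, 79.8, 85.8 and 83.3 CPM in the RS7 rats. RS7 rat 2 was the lowest of its group and stood above C rat 23, the highest of the C group, and the level rose 1.54-fold, a log2 fold change of 0.62 (SE 0.106, edgeR adjusted p = 0.0181). Zfp871 (ENSRNOG00000004947), a zinc finger protein, had 5.71, 3.59, 5.45, 5.44 and 7.25 CPM in the C rats and 9.47, 11.3, 8.19, 9.72 and 13.1 CPM in the RS7 rats. The groups did not overlap, a log2 fold change of 0.89 (SE 0.146, edgeR adjusted p = 0.0181). Greb1 (ENSRNOG00000024651), first known as a target and partner of the estrogen receptor, had 8.404, 7.72, 8.27, 7.52 and 8.22 CPM in the C rats and 4.46, 6.27, 5.24, 4.16 and 5.47 CPM in the RS7 rats. The 5 C rats lay close together and every RS7 rat was below them, a log2 fold change of -0.66 (SE 0.121, edgeR adjusted p = 0.0228). Of the 22 transcription factors that the study discusses, 9 were matched and Foxp2 was the 1 called (5 by the DESeq2 Wald test and 3 by limma-voom). At an unadjusted p under 0.05, 6 were higher and 3 lower, with a median log2 fold change of 0.18. Zfp365 had a log2 fold change of 0.27 (edgeR adjusted p = 0.105).

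Lypd6 (ENSRNOG00000038980), a small membrane-anchored protein that modulates nicotinic receptors, had 30.8, 25.4, 27.5, 38.6 and 30.8 CPM in the C rats and 49.6, 41.6, 48.6, 45.2 and 59.8 CPM in the RS7 rats. No C rat reached the RS7 rats, and the level rose 1.58-fold, a log2 fold change of 0.66 (SE 0.1302, edgeR adjusted p = 0.0457). It was the 1 call among 13 matched members of 23 transsynaptic organisers and modulators of receptors at synapses. The DESeq2 Wald test called 10 of the 13 and limma-voom 5. All 13 were higher in the RS7 group at an unadjusted p under 0.05, 7 of them without overlap, and their median log2 fold change was 0.32. Its relative Lypd6b had 14.3, 7.32, 12.7, 21.4 and 13.3 CPM in the C rats and 27.8, 24.2, 24.4, 27.1 and 34.9 CPM in the RS7 rats. RS7 rats stood above all C rats with a log2 fold change of 0.96 (SE 0.217, edgeR adjusted p = 0.0638). Cbln4, a secreted protein that bridges the cleft, had 47.6, 42.6, 53.5, 74.7 and 45.9 CPM in the C rats and 94.3, 82.9, 93.2, 85.3 and 116 CPM in the RS7 rats. The lowest RS7 rat, rat 3, was above C rat 23, and the log2 fold change of 0.82 (SE 0.177, edgeR adjusted p = 0.0599) did not pass. Cntn4, an adhesion protein, had a log2 fold change of 0.39 (edgeR adjusted p = 0.0549).

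Other calls were spread over organelles, the cytoskeleton and the cell surface. Opa1 (ENSRNOG00000001717), the GTPase that fuses inner mitochondrial membranes, had 119.8, 115, 129, 130.2 and 128 CPM in the C rats and 141, 143, 144, 148 and 148 CPM in the RS7 rats. This was the smallest change called, and the groups did not overlap, a log2 fold change of 0.22 (SE 0.0454, edgeR adjusted p = 0.0457). Vps13c (ENSRNOG00000030213), which carries lipids between organelles, rose by a log2 fold change of 0.39 (SE 0.0691, edgeR adjusted p = 0.0181), and Stmn1 (ENSRNOG00000016810), which takes microtubules apart, by a log2 fold change of 0.30 (SE 0.0638, edgeR adjusted p = 0.0494), again with no RS7 rat inside the C range. Hecw1 (ENSRNOG00000016046), a ubiquitin ligase, had a log2 fold change of 0.32 (SE 0.06503, edgeR adjusted p = 0.0457), and Megf11 (ENSRNOG00000010634), a cell surface protein that spaces neurons of 1 kind in the retina, a log2 fold change of 0.66 (SE 0.119, edgeR adjusted p = 0.0181).

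Lnpep (ENSRNOG00000055229), the membrane aminopeptidase that cleaves oxytocin and vasopressin, had 4.55, 4.26, 8.27, 4.97 and 6.36 CPM in the C rats and 9.19, 10.9, 8.85, 8.39 and 12.1 CPM in the RS7 rats. C rat 22 came close to RS7 rat 5 without reaching it. The level rose 1.74-fold, a log2 fold change of 0.80 (SE 0.1497, edgeR adjusted p = 0.0275), and a separate identifier carries the same symbol, so reads may have been divided between the 2. Cndp2 (ENSRNOG00000015591), a cytosolic dipeptidase, rose by a log2 fold change of 0.44 (SE 0.08405, edgeR adjusted p = 0.0426), with RS7 rat 4 just below C rat 23. Tp53i11 (ENSRNOG00000008738), named as a gene that p53 induces, and Ptar1 (ENSRNOG00000014891), named for its prenyltransferase repeat, rose without overlap, by log2 fold changes of 0.51 and 0.74 (edgeR adjusted p = 0.0457 and 0.0457). Ankdd1a (ENSRNOG00000015554), a protein with ankyrin repeats and a death domain, had 2.47, 2.66, 1.68, 1.75 and 2.12 CPM in the C rats and 1.46, 0.804, 0.918, 0.946 and 0.547 CPM in the RS7 rats. All RS7 rats were below the C rats, at 7 to 32 counts a rat, a log2 fold change of -1.15 (SE 0.2398, edgeR adjusted p = 0.0457). The call without a symbol, ENSRNOG00000061630, was lower with a log2 fold change of -0.37 (SE 0.0767, edgeR adjusted p = 0.0457).

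Among genes of inhibitory transmission, edgeR called 0 members of the GABA synthesis and GABA receptor lists, whose differences had opposite signs. The 3 matched members of 7 genes of GABA synthesis and vesicle loading were lower in the RS7 group at an unadjusted p under 0.05, with 0 called by edgeR (3 by the DESeq2 Wald test and 2 by limma-voom). Gad1, which makes GABA, had 283, 223, 268, 188 and 323 CPM in the C rats and 192, 146, 166, 166 and 158 CPM in the RS7 rats. C rat 23 was the lowest C rat and came under RS7 rat 2, and the other 4 C rats lay above the RS7 group, with a log2 fold change of -0.63 (SE 0.132, edgeR adjusted p = 0.05398). Gad2, its partner enzyme, had a log2 fold change of -0.61 (edgeR adjusted p = 0.0665), and Slc32a1, which loads GABA into vesicles, had a log2 fold change of -0.42 (edgeR adjusted p = 0.126). Summed over the 3 genes, the level was 919.8, 813, 848, 587 and 996 CPM in the C rats and 639, 478, 605, 520.1 and 515 CPM in the RS7 rats. The sum of C rat 23 lay inside the RS7 range and those of the other C rats above it. The 5 matched members of 18 GABA receptor genes were all higher in the RS7 group at an unadjusted p under 0.05, with a median log2 fold change of 0.49 and 0 called by edgeR (3 by the DESeq2 Wald test and 2 by limma-voom). Gabrb2, a beta subunit, had 89.7, 73.2, 87.1, 111 and 106 CPM in the C rats and 125, 140.4, 114, 154 and 147 CPM in the RS7 rats. Its groups did not overlap, a log2 fold change of 0.53 (SE 0.125, edgeR adjusted p = 0.0666). Gabrb1 and Gabrd, the latter a subunit of receptors outside the synapse, had log2 fold changes of 0.49 and 0.63 (edgeR adjusted p = 0.0904 and 0.124).

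Of 33 genes of glutamate receptors and transporters, 8 were matched and 0 called by edgeR (4 by the DESeq2 Wald test and 3 by limma-voom), with 6 higher and 1 lower at an unadjusted p under 0.05. Grin2a, an NMDA receptor subunit, had 16.9, 14.6, 24.8, 21.6 and 22.01 CPM in the C rats and 32.2, 35.9, 31.7, 32.2 and 36.2 CPM in the RS7 rats. Every RS7 rat lay above every C rat, and its log2 fold change of 0.74 (SE 0.151, edgeR adjusted p = 0.0501) was the nearest to the threshold in the list. Slc17a6, the vesicular transporter that marks glutamate neurons of the thalamus and hypothalamus, had 597, 486, 541, 652 and 614 CPM in the C rats and 733, 751, 661, 878 and 742 CPM in the RS7 rats. RS7 rats stood above all C rats, RS7 rat 4 by little, a log2 fold change of 0.38 (SE 0.0993, edgeR adjusted p = 0.0791). Cnih3, an AMPA receptor partner, had a log2 fold change of 0.63 (edgeR adjusted p = 0.0904).

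Of 30 genes of synaptic vesicles and release, 17 were matched and 0 called by edgeR (12 by the DESeq2 Wald test and 1 by limma-voom), with 13 higher and 3 lower at an unadjusted p under 0.05 and a median log2 fold change of 0.20. Stxbp5l, a tomosyn that holds back vesicle fusion, had 12.3, 13.6, 17.9, 15.6 and 17.6 CPM in the C rats and 21.4, 20.7, 22.1, 18.04 and 21.96 CPM in the RS7 rats. The groups touched without overlapping, since RS7 rat 5 was just above C rat 22, a log2 fold change of 0.43 (SE 0.0977, edgeR adjusted p = 0.05398). Rab3ip and Rab3c, of the Rab pathway of vesicle traffic, and Napb, which helps to recycle SNARE proteins, had log2 fold changes of 0.34, 0.42 and 0.20 (edgeR adjusted p = 0.0698, 0.0902 and 0.0894). Of 33 axon guidance genes, 12 were matched and 0 called by edgeR (9 by the DESeq2 Wald test and 4 by limma-voom), with 6 higher and 4 lower at an unadjusted p under 0.05. The secreted cue Sema3d had 14.4, 15.04, 22.2, 23.7 and 18.9 CPM in the C rats and 26.95, 29.04, 26.4, 29.5 and 33.8 CPM in the RS7 rats, with the groups apart, a log2 fold change of 0.62 (SE 0.1301, edgeR adjusted p = 0.0509). Unc5a, a netrin receptor, had 27.99, 28.3, 26.1, 18.7 and 20.4 CPM in the C rats and 20.7, 17.5, 19.8, 14.6 and 17.7 CPM in the RS7 rats. Here C rats 23 and 24 lay within the RS7 range, a log2 fold change of -0.42 (SE 0.109, edgeR adjusted p = 0.0746). The ephrin receptors Epha6 and Epha4 had log2 fold changes of 0.69 and 0.44 (edgeR adjusted p = 0.07703 and 0.0839).

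Genes of peptide signalling held the largest decreases among the genes with a symbol. Avp, the vasopressin precursor, had 86.8, 13.97, 11.7, 1.07 and 41.2 CPM in the C rats and 4.18, 0.322, 2.88, 3.79 and 0.0781 CPM in the RS7 rats. C rat 23 lay among the RS7 rats, while the other C rats lay above them and ranged widely between themselves, and the standard error was large, a log2 fold change of -3.73 (SE 1.28, edgeR adjusted p = 0.154). Oxt, the oxytocin precursor, had 123, 14.1, 19.2, 0.604 and 80.7 CPM in the C rats and 9.61, 0.644, 3.74, 7.13 and 0.0781 CPM in the RS7 rats. The pattern was the same, with C rats 19 and 24 far above the rest, a log2 fold change of -3.45 (SE 1.19, edgeR adjusted p = 0.155). Trh, the precursor of thyrotropin-releasing hormone, had 62.1, 29.4, 44.9, 13.4 and 62.8 CPM in the C rats and 14.1, 6.19, 13.4, 21.3 and 1.95 CPM in the RS7 rats, with C rat 23 under RS7 rats 2, 4 and 5, a log2 fold change of -1.87 (SE 0.608, edgeR adjusted p = 0.139). Penk, the enkephalin precursor, had 76.9, 69.7, 63.9, 36.2 and 54.3 CPM in the C rats and 36.2, 27.4, 46.7, 26.1 and 27.5 CPM in the RS7 rats. C rat 23 again met the RS7 group, at RS7 rats 2 and 4, a log2 fold change of -0.86 (SE 0.224, edgeR adjusted p = 0.0898). Of 21 neuropeptide genes, 7 were matched, with 6 lower and 1 higher at an unadjusted p under 0.05 and 0 called by edgeR (3 by the DESeq2 Wald test and 1 by limma-voom). The higher gene was Cck, cholecystokinin, at 112, 93.8, 137, 127 and 120.2 CPM in the C rats and 138, 155, 173, 193 and 161 CPM in the RS7 rats, which did not overlap (0.47, edgeR adjusted p = 0.108). Gal, galanin, had a log2 fold change of -1.18 (edgeR adjusted p = 0.124).

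Of 29 receptors for peptides and monoamines, 15 were matched and 0 called by edgeR (9 by the DESeq2 Wald test and 3 by limma-voom), with 4 higher and 9 lower at an unadjusted p under 0.05. Oprm1, the mu opioid receptor, had 7.94, 10.9, 16.1, 10.1 and 15.6 CPM in the C rats and 23.1, 26.6, 24.97, 22.8 and 20.01 CPM in the RS7 rats. No RS7 rat was as low as the highest C rat, a log2 fold change of 0.97 (SE 0.221, edgeR adjusted p = 0.0638). Nmbr, the neuromedin B receptor, had 4.86, 1.73, 3.98, 4.36 and 5.75 CPM in the C rats and 7.45, 7.56, 6.49, 8.26 and 6.96 CPM in the RS7 rats, also without overlap, a log2 fold change of 0.78 (SE 0.189, edgeR adjusted p = 0.0638). Ntrk3, the neurotrophin-3 receptor, had a log2 fold change of -0.33 (edgeR adjusted p = 0.0638). Crhr2, a receptor for urocortins of the corticotropin-releasing family, had 5.09, 3.99, 3.67, 1.75 and 3.45 CPM in the C rats and 1.53, 2.25, 2.03, 1.07 and 1.56 CPM in the RS7 rats. C rat 23 fell among the RS7 rats and the other 4 C rats above them, a log2 fold change of -1.07 (SE 0.268, edgeR adjusted p = 0.06901). Prlhr, the prolactin-releasing peptide receptor, had 3.47, 1.86, 3.04, 0.671 and 4.77 CPM in the C rats and 0.766, 0.241, 0.5899, 1.39 and 0.547 CPM in the RS7 rats, with C rat 23 once more in the RS7 range, a log2 fold change of -1.90 (SE 0.567, edgeR adjusted p = 0.114).

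Crhr2 and Klf9 were the 2 matched members of 11 genes of steroid and corticotropin feedback, with 0 called by edgeR (1 by the DESeq2 Wald test and 0 by limma-voom) and 1 higher and 1 lower at an unadjusted p under 0.05. Klf9, which glucocorticoids induce in many tissues, had 81.6, 95.4, 92.6, 91.4 and 92.7 CPM in the C rats and 92.7, 102, 111, 110.4 and 94.6 CPM in the RS7 rats. The groups overlapped, a log2 fold change of 0.17 (SE 0.0668, edgeR adjusted p = 0.175). Of 20 immediate-early genes, which neurons switch on within minutes of activity, 3 were matched and 0 called by edgeR (2 by the DESeq2 Wald test and 2 by limma-voom), with 1 higher and 2 lower at an unadjusted p under 0.05. Plk2, a kinase that weakens synapses after strong activity, had 29.7, 33.8, 29.3, 26.9 and 29.4 CPM in the C rats and 21.3, 23.4, 26.7, 21.95 and 23.4 CPM in the RS7 rats. The RS7 rats lay below the C rats, RS7 rat 4 by little, a log2 fold change of -0.34 (SE 0.0803, edgeR adjusted p = 0.0599). Bhlhe40, a repressor tied to the circadian clock, lay the other way, at 59.1, 63.6, 68.5, 59.2 and 56.8 CPM in the C rats and 70.7, 76.3, 71.6, 88.95 and 72.4 CPM in the RS7 rats, without overlap, a log2 fold change of 0.31 (SE 0.0789, edgeR adjusted p = 0.0699). Arc, whose protein acts at synapses, had a log2 fold change of -0.42 (edgeR adjusted p = 0.219). Of 14 heat shock genes, 7 were matched and 0 called by edgeR (4 by the DESeq2 Wald test and 1 by limma-voom), with 5 higher and 2 lower at an unadjusted p under 0.05. Hspa1a, the inducible Hsp70, had 3.32, 3.99, 4.61, 4.297 and 5.04 CPM in the C rats and 3.06, 2.82, 3.21, 1.89 and 2.03 CPM in the RS7 rats. RS7 rats were below all C rats, a log2 fold change of -0.70 (SE 0.164, edgeR adjusted p = 0.0599). Dnajc6, Hsph1 and Hspb8 had log2 fold changes of 0.24, 0.23 and -0.34 (edgeR adjusted p = 0.0697, 0.0986 and 0.0988).

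The dorsal thalamus, the zona incerta and the wall of the ventricle are neighbours of the rPH. Lists of their markers are described here, and edgeR called 0 of their matched members. Only members that the study had listed as changed could be matched. A summed level therefore describes those members and does not show the level of the whole list. Of 12 dorsal thalamus markers, 7 were matched to 8 identifiers, and all 8 were higher in the RS7 group at an unadjusted p under 0.05, with 0 called by edgeR (5 by the DESeq2 Wald test and 2 by limma-voom) and a median log2 fold change of 0.43. Their summed level was 767, 648, 909, 858 and 868 CPM in the C rats and 1004, 1101, 1081, 1295 and 1038 CPM in the RS7 rats. The lowest RS7 rat stood above the highest C rat, C rat 21 was lowest and RS7 rat 5 highest. The largest part was from Tcf7l2, a Wnt effector that thalamic neurons keep into adulthood, at 297, 244, 335, 331 and 327 CPM in the C rats and 406, 431, 414, 476 and 414 CPM in the RS7 rats for its more abundant identifier (ENSRNOG00000049232). This gene, which is also in the Wnt list, did not overlap either, a log2 fold change of 0.48 (SE 0.124, edgeR adjusted p = 0.0791), and Lhx9, Rora and Rorb had log2 fold changes of 0.72, 0.80 and 0.32 (edgeR adjusted p = 0.0779, 0.0837 and 0.0941).

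Of 12 prethalamus and zona incerta markers, all 5 that were matched were lower in the RS7 group at an unadjusted p under 0.05, with 0 called by edgeR (4 by the DESeq2 Wald test and 2 by limma-voom) and a median log2 fold change of -0.94. Their summed level was 39.3, 35.9, 39.3, 19.5 and 36.5 CPM in the C rats and 23.5, 12.3, 23.4, 18.1 and 12.7 CPM in the RS7 rats. C rat 23 stood far below the other C rats and inside the RS7 range. Dlx6, a homeobox gene of GABA neurons, had 3.16, 2.79, 3.35, 2.08 and 3.36 CPM in the C rats and 1.74, 1.05, 1.64, 1.703 and 1.41 CPM in the RS7 rats. The groups were apart and the log2 fold change of -0.94 (SE 0.2004, edgeR adjusted p = 0.0501) was just outside the threshold. Dlx5, Lhx5 and Isl1 had log2 fold changes of -1.21, -0.73 and -1.26 (edgeR adjusted p = 0.0839, 0.0898 and 0.1199), and Isl1 is also in the hypothalamic list.

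All 14 matched members of 27 hypothalamus and neurosecretory markers were lower in the RS7 group, 13 of them at an unadjusted p under 0.05, with 0 called by edgeR (8 by the DESeq2 Wald test and 4 by limma-voom) and a median log2 fold change of -1.08. Their summed level was 1808, 1589, 1532, 1142 and 1469 CPM in the C rats and 1177, 988, 1294, 824 and 905 CPM in the RS7 rats. C rat 23 was under RS7 rats 2 and 4, and the other 4 C rats were above the RS7 group. The most abundant was the imprinted gene Nnat, with 528, 606, 597, 387 and 401 CPM in the C rats and 358, 318, 474, 281 and 303 CPM in the RS7 rats, and its log2 fold change of -0.54 (SE 0.152, edgeR adjusted p = 0.102) did not pass. Sim1, a transcription factor of the paraventricular nucleus, had 15.3, 11.6, 10.8, 7.32 and 13.7 CPM in the C rats and 6.76, 5.39, 8.45, 3.66 and 5.55 CPM in the RS7 rats, with RS7 rat 4 above C rat 23, a log2 fold change of -0.97 (SE 0.226, edgeR adjusted p = 0.0638). Calcr, the calcitonin receptor, had 45.6, 40.2, 39.6, 27.9 and 43.6 CPM in the C rats and 17.9, 19.1, 30.1, 6.06 and 11.7 CPM in the RS7 rats. RS7 rat 4 alone reached the C range, a log2 fold change of -1.21 (SE 0.334, edgeR adjusted p = 0.0988). Magel2 had a log2 fold change of -0.51 (edgeR adjusted p = 0.108).

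All 7 matched members of 18 ependymal and motile cilium markers were lower in the RS7 group at an unadjusted p under 0.05, with 0 called by edgeR (3 by the DESeq2 Wald test and 1 by limma-voom) and a median log2 fold change of -0.60. Their summed level was 73.4, 71.99, 67.2, 54.5 and 59.1 CPM in the C rats and 50.3, 43.9, 52.2, 32.2 and 39.1 CPM in the RS7 rats. The highest RS7 rat, rat 4, lay under the lowest C rat, rat 23. The most abundant was Crocc, the rootletin of the ciliary base, at 23.4, 21.6, 21.4, 16.8 and 18.2 CPM in the C rats and 16.6, 13.7, 15.3, 12.2 and 13.3 CPM in the RS7 rats, a log2 fold change of -0.50 (SE 0.122, edgeR adjusted p = 0.0638). Ak9, Daw1 and Catip had log2 fold changes of -0.66, -0.76 and -0.47 (edgeR adjusted p = 0.0638, 0.0736 and 0.119).

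Of 14 vascular and basement membrane markers, 6 were matched, 2 higher and 4 lower at an unadjusted p under 0.05, with 0 called by edgeR (3 by the DESeq2 Wald test and 0 by limma-voom) and a summed level of 287, 309, 299, 294 and 272 CPM in the C rats and 258, 267, 282, 262 and 262 CPM in the RS7 rats. The groups overlapped through C rat 24 and RS7 rat 4. The most abundant was Utrn, utrophin, at 129 and 113 CPM on average in the C and RS7 groups, and the basement membrane genes Lama3, Col4a1 and Lamb1 had log2 fold changes of -0.58, -0.23 and 0.28 (edgeR adjusted p = 0.0779, 0.0963 and 0.117). Of 10 astrocyte markers, 3 were matched, 1 higher and 2 lower at an unadjusted p under 0.05, with 0 called by edgeR (0 by the DESeq2 Wald test and 0 by limma-voom) and a summed level of 1945, 2295, 2121, 1999.7 and 1888 CPM in the C rats and 1911, 1884, 2033, 1751 and 1908 CPM in the RS7 rats. The groups overlapped widely. The most abundant was the water channel Aqp4 (-0.19, edgeR adjusted p = 0.181), and the glutamate transporters Slc1a2 and Slc1a3 had log2 fold changes of 0.20 and -0.10 (edgeR adjusted p = 0.185 and 0.233). No matched member of these 6 marker lists, those of the hypothalamus included, stood at 0 in any of the 10 rats. The 12 oligodendrocyte, 10 microglia and 7 choroid plexus markers had 0 matched identifiers, so their levels are not known here. In bulk tissue, fewer cells of a type and less RNA per cell cannot be told apart. These marker levels stand beside the called genes, and their part in the result was not tested.

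**Figure D3:**
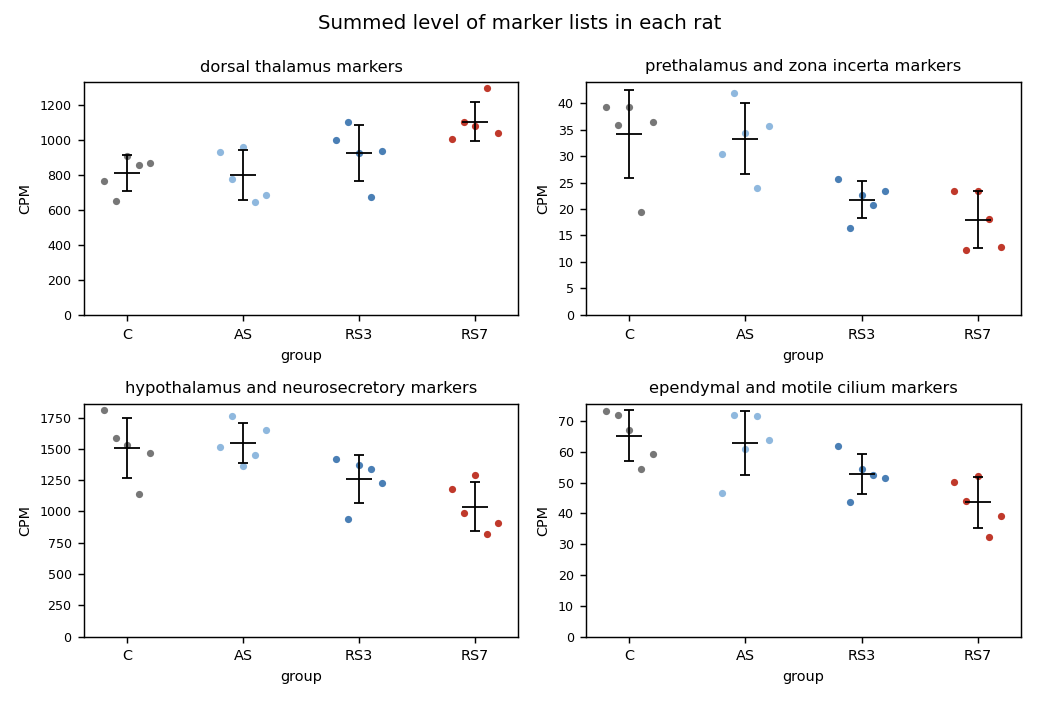
Summed CPM of the matched members of 4 marker lists in each of the 20 rats of the fit, with 5 rats in each of the groups C, AS, RS3 and RS7; the bar and whiskers give the mean and SD. Only members that the study had listed as changed could be matched, so the sums do not show whole lists. In these members the RS7 rats lie above the C rats for the dorsal thalamus and below them for the ependyma. C rat 23 lies in the RS7 range for the matched prethalamic and hypothalamic markers.

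The same rats lay nearest to the other group in many of the called genes. In 12 of the 24 called genes C rat 23 was the C rat nearest to the RS7 group, against 6 for C rat 22, 4 for C rat 24, 2 for C rat 19 and 0 for C rat 21. On the other side, RS7 rats 2 and 4 were nearest to the C group in 9 and 8 genes, and RS7 rat 6 in 0. Leaving out any of the 10 rats moved the number that edgeR called by more than 1.5 times. The number rose to 560 when RS7 rat 4 was left out, 283 higher and 277 lower, to 241 for C rat 23, to 62 for C rat 24 and to 39 for C rat 22. It dropped to 13 for RS7 rat 2 and to 7 for RS7 rat 5. When C rat 19, C rat 21, RS7 rat 3 and RS7 rat 6 were each left out, edgeR called 0 genes, and an unadjusted p under 0.05 was found for 2767, 2011, 2491 and 2376. Leaving out 1 of the AS or RS3 rats, which enter through the estimate of the spread, gave between 10 and 75.

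Of tested genes with a symbol and not yet described, 3 were among the 5 largest increases. Acpp, a prostatic-type acid phosphatase that forms adenosine, had 2.08, 0.399, 1.36, 1.54 and 2.21 CPM in the C rats and 3.48, 4.102, 3.15, 3.91 and 3.75 CPM in the RS7 rats. Fut9, which adds fucose to make the Lewis x structure, had 2.93, 2.26, 3.46, 3.63 and 2.39 CPM in the C rats and 4.53, 7.401, 4.26, 4.73 and 9.22 CPM in the RS7 rats, and Ctxn3, a cortexin, had 8.48, 10.1, 11.9, 27.6 and 8.75 CPM in the C rats and 24.7, 25.3, 26.2, 27.3 and 34.7 CPM in the RS7 rats. The groups did not overlap for Acpp and Fut9, while C rat 23 lay within the RS7 range of Ctxn3. Their log2 fold changes were 1.20, 1.00 and 1.00 (edgeR adjusted p = 0.0599, 0.07697 and 0.112).

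The AS and RS3 rats were compared with the same C rats, so these values are not independent of those above. Kcnh5 had 5.17 ± 1.05, 3.44 ± 0.867, 7.03 ± 1.89 and 10.9 ± 2.15 CPM in the C, AS, RS3 and RS7 groups (SD, n = 5), and Kcnh7 had 3.503 ± 0.632, 3.38 ± 0.472, 4.61 ± 0.861 and 6.504 ± 1.15 CPM. For Kcnh5 the AS mean lay below the C mean, and for both genes the RS3 mean stood between those of the C and RS7 groups. Greb1 had 8.03 ± 0.385, 6.56 ± 1.15, 6.96 ± 0.448 and 5.12 ± 0.8402 CPM and Opa1 124 ± 6.78, 129 ± 2.12, 133 ± 7.91 and 145 ± 3.23 CPM. For Vps13c the log2 fold change from the C group was -0.07 in AS, 0.15 in RS3 and 0.39 in RS7 rats. Fzd5 had 0.21, 1.07 and 1.12, so that its RS3 and RS7 values lay close together. EdgeR called none of these 6 genes in AS or RS3 against C, with a lowest adjusted p of 0.1798 for Fzd5 in RS3, and the differences between the exposures were not tested here.

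The rats the study left out had no part in the calls, and their CPM is given here on a scale set over all 24 rats. How often they lay beyond the other group over all genes tested was not counted. The counts among called genes that follow are therefore descriptions. C rat 20 lay on the C side of the RS7 range in all 24 called genes. RS7 rat 1 lay beyond all 5 retained C rats in the direction of the call in 15 of the 24 genes, 11 of the 18 higher and 4 of the 6 lower genes. It had 11.5 CPM of Kcnh5 and 9.16 CPM of Kcnh7, where the highest retained C rats had 6.06 and 4.27 CPM. It had 34.4 CPM of Prkcq and 2.77 CPM of Fzd5, inside the C ranges of 23.2 to 40.4 and 1.38 to 3.54 CPM. The 10 most abundant genes took 33.8% of the counts of this rat and 25.1% of those of C rat 20, more than in any retained rat of the 2 groups. Its summed dorsal thalamus markers, 1338 CPM, were above those of every retained rat of both groups (611.5 to 1226 CPM). Its prethalamic sum of 29.1 CPM lay inside the C range (18.3 to 37.3 CPM) and above the RS7 range (11.6 to 22.2 CPM). Its hypothalamic sum of 1190.2 CPM lay inside both the C range (1073 to 1700.1 CPM) and the RS7 range (779.5 to 1224 CPM). Its ependymal sum of 50.7 CPM lay between the highest RS7 rat (49.4 CPM) and the lowest C rat (51.3 CPM). Its vascular sum of 232.3 CPM was below, and its astrocyte sum of 2195 CPM above, those of all retained rats of both groups (244.7 to 292.04 and 1657 to 2167 CPM).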

How the data were processed

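Each value in the deposited table is a raw count of reads that the authors assigned to an Ensembl gene, for 32883 genes in 24 rats, from paired-end 75 bp mRNA libraries. Per the submitters' processing notes and the study's methods, reads were trimmed with Trimmomatic 0.36, mapped to the rn6 (Rnor_6.0) genome with HISAT2 2.0.5 and counted with featureCounts. How strand and multiply mapped reads were handled is not stated in the methods, so overlapping genes and near-identical copies are uncertain. The rats left out by the study (RS7 rat 1, RS3 rat 8, AS rat 18 and C rat 20) were identified from the mean normalized counts of its gene table, which 1 of 1296 sets gave for 808 of 808 genes (relative tolerance 1e-06).

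Genes were filtered with filterByExpr (minimum count 10) over the 20 retained rats, scaled by TMM and fitted by group with edgeR 4.0.16 in R 4.3.3. The robust quasi-likelihood test of RS7 minus C used Benjamini-Hochberg adjustment over all genes, at 0.05. Standard errors are the log2 fold change over the square root of F. Alternatives were DESeq2 1.42.0 (filtering tuned to 0.05, or to the default 0.1), limma-voom 3.58.1 with quality weights, DESeq2 size factors, no filter, a minimum count of 50, all 24 rats, only the C and RS7 rats, libraries thinned to 8087697 counts, and each rat left out. Each test was also run on simulated counts, and no result of those runs is reported here. No 2 libraries of a group agreed within sampling noise (lowest chi-square per degree of freedom 2.43 over 20 pairs).

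Symbols come from the study's supplementary gene table, as a map from 778 identifiers, with 13 scan errors mended and 1 identifier with 2 symbols left without one. The RefSeq table at hand matched none of the identifiers. Named genes are all called genes with a symbol, up to 4 members of each of 26 lists at an unadjusted p under 0.05 by lowest p, and the 5 largest differences in each direction among genes with a symbol. Some genes that this rule chose are not reported here. The rats, lists and comparison were chosen with earlier results of these data known. GC content and length were not examined.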

Additional observations from a re-analysis of the deposited data

Results flagged for a closer look

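The check covered 264 groups of 5 values, C or RS7, of library measures, list sums and named genes. A group was flagged if it held a rat whose distance to its nearest neighbour was over 0.71 of the whole range. Chance flags about 1 in 20, and the 13 groups flagged are near that share. In the C group these were the summed level of second messenger kinases in rat 21 (1897 CPM), that of the transcription factors in rat 21 (453.5 CPM), that of the prethalamus and zona incerta markers in rat 23 (19.5 CPM), Ctxn3 in rat 23 (27.6 CPM), Epha6 in rat 23 (5.84 CPM) and Fzd5 in rat 23 (3.76 CPM). In the RS7 group they were the share that the top 10 genes took of all counts in rat 4 (18.8%), Arc in rat 5 (5.99 CPM), Ctxn3 in rat 6 (34.7 CPM), Dnajc6 in rat 5 (621.5 CPM), Kcnh7 in rat 6 (8.52 CPM), Lhx9 in rat 5 (16.4 CPM) and Utrn in rat 4 (123.9 CPM). RS7 rat 1, which was not in the fit that made the calls, lay beyond all 5 C rats in 15 of the 24 called genes. The matching share over all genes tested was not counted.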

How the results depend on the processing

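EdgeR called 24 genes, 18 higher and 6 lower. With DESeq2's size factors it called 30, and with a minimum count of 50 it called 35. Without a filter on low counts it called 64 (51 higher, 13 lower), in all 24 rats 46 (36 higher, 10 lower), and in libraries thinned to equal total counts 62 (45 higher, 17 lower). With only the C and RS7 rats in the fit it called 18, of which 1 was lower. Of the 24 genes, 22 were also called without a filter, 17 in all 24 rats, 21 after thinning and 10 with only the C and RS7 rats. Limma-voom with quality weights called 164 (98 higher, 66 lower), all 24 among them. The DESeq2 Wald test called 419 (294 higher, 125 lower), 23 of the 24 among them, and with default filtering 405 (283 higher, 122 lower), all 24 among them. In all 24 rats, 255 genes had groups that do not overlap, against 581; more rats per group leave fewer such genes by construction.

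Leaving out each rat in turn gave between 0 and 560 called genes, 0 to 283 higher and 0 to 277 lower. Without C rats 21 and 22 and RS7 rat 4, an alternative chosen after seeing the data, edgeR called 0 genes, 0 higher and 0 lower, and 2127 had an unadjusted p under 0.05. Where a count changed, the cause was not tested.

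For the 106 genes chosen by the naming rule, 3170 values under up to 30 alternatives gave the same direction and the same side of the threshold in 2556, lost the call in 253, gained one in 361 and reversed in 0. The genes were chosen on this contrast and the alternatives share most of the rats, so a reversal was unlikely from the start. Each called gene was called in 14 to 25 of the alternatives. No paired analysis was possible because no rat numbers are shared between groups. Depth limits the genes with few reads, such as Ankdd1a with 7 to 32 counts a rat and Fzd5 with 11 to 79.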
